A study of Mus musculus with 22 samples.

Results

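The genes Hey1, Hey2, Heyl, Hes1, Hes5 and Nrarp, 6 of the 55376 genes counted in each library, were followed across sorted cells of the embryonic mouse spinal cord. Notch signalling is known to switch them on. They were taken by name, with no threshold on their values, and all 6 passed the filter on low counts in every comparison. The libraries hold polyadenylated RNA from E12.5 mouse embryos, in the middle of gestation. In the first series, called the knockout series here, spinal cord was dissected with its meninges, and endothelial cells, the lining of blood vessels, were sorted by a Kdr-Cherry reporter, while motor neurons were sorted by an ISL1-fGFP reporter. Each cell type came from wild-type embryos and from Plxnd1 knockout embryos, which lack a receptor for class 3 semaphorins. In the second, regional series, Kdr-Cherry endothelial cells of wild-type embryos came from the cord tissue itself (called spinal) or from the meninges around it (called meningeal), with 5 libraries of each. Spinal batches 1 to 3 held the ventral cord and batches 4 and 5 the whole cord. The Plxnd1 allele is described only as a knockout in the labels, and Kdr and Isl1 reporters mark any cell in which those genes are active, not 1 pure cell type. Embryos were pooled by genotype, so each p-value measures the spread between these libraries and not between embryos.

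In Notch signalling, a ligand on one cell (Dll1, Dll4, Jag1) opens the receptor on its neighbour, the freed inner part of the receptor joins the DNA-binding protein RBPJ, and the pair switches on a small set of target genes. Hes1 and Hes5 (hairy and enhancer of split relatives) and Hey1, Hey2 and Heyl (their close kin with another end motif) are basic helix-loop-helix repressors, which shut other genes off. Nrarp is a short ankyrin repeat protein that binds the active receptor complex and dampens it. In the developing cord Hes1 and Hes5 are known for keeping progenitors from becoming neurons. In vessels Hey1 and Hey2 are known for arterial identity and Nrarp for the choice of cells behind a sprout tip, and Heyl is known from mural cells, the pericytes and smooth muscle around vessels.

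The stretches upstream of the first counted exon are printed for Hes5, Hey2 and Nrarp, the 3 of the 6 with an entry in the table used, because RBPJ binds its targets through the letters GTGGGAA. They are RefSeq sequences of the build GRCm38.p6, written 5′ to 3′ on the strand of the gene, and capitals mark GTGGGAA or, where the match lies on the other strand, its reverse complement. Those of Hey1, Heyl and Hes1 are not printed.
Hes5 chr4:154960673-154960922 plus strand: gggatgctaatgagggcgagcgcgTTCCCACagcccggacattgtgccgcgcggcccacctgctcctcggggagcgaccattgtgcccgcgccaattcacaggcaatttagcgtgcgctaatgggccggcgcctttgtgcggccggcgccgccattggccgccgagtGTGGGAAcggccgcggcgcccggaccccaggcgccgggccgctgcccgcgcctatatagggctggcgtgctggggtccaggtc
Hey2 chr10:30842802-30843033 minus strand: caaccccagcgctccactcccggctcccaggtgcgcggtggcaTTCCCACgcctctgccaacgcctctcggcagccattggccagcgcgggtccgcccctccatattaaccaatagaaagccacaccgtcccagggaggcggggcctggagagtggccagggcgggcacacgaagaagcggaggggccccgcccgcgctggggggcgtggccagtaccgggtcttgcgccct
Nrarp chr2:25180508-25180757 plus strand: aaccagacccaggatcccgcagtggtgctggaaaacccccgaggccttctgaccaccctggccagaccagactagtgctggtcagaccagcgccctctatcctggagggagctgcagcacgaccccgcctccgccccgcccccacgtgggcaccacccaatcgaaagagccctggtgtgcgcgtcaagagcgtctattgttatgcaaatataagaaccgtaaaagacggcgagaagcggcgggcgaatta

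Over the full RefSeq windows, which run from 250 bases before to 50 bases after the start, GTGGGAA was found on either strand in 6.38% of 32851 promoters, and at 2 or more places in 0.256%. Hes5 held 2 matches, at 226 bases before its start on the reverse strand (chr4:154960697-154960703) and at 83 bases before on the forward strand (chr4:154960840-154960846). Hey2 also held 2, one at 207 bases before its start on the reverse strand (chr10:30842984-30842990) and one at 4 bases before (chr10:30842781-30842787), which lies inside the first exon of the count files and is therefore not printed. Nrarp held no match in this window. Other motifs bound by Hes and Hey proteins, searched as CACNAG (the N box, in 42.5% of promoters) and CACGNG (class C, in 27.5%), were absent from the Hes5 and Hey2 windows. In the Nrarp window CACNAG occurred at 2 places, at 179 and 79 bases before the start, and CACGNG at 1 place, at 108 bases before. The letters there are CACGTG, which read alike on both strands and match the class C search only through its open letter N. These matches describe letters only, and binding was not measured.

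The 6 genes lie on 6 places in the GRCm38 genome, and counts were summed over all their exons. Hey1 lies at chr3:8663359-8667256 on the minus strand, Hey2 at chr10:30832359-30842801 on the minus strand and Heyl at chr4:123233556-123249875 on the plus strand. Hes1 lies at chr16:30065340-30067796, Hes5 at chr4:154960923-154962371 and Nrarp, which has a single exon, at chr2:25180758-25183339, all on the plus strand. A gene on the opposite strand shares exon bases with Nrarp and with Hes5. In the knockout series, counted without regard to strand, reads that touch exons of 2 genes were not assigned, so at most 531 of the 2582 exon bases of Nrarp and 840 of the 1273 of Hes5 could yield counts. All exon bases of Gm38287, the antisense gene of Nrarp, lie inside the Nrarp exon. Its 0 counts in all 11 libraries of that series were therefore fixed by the counting and do not show its level. Gm20421, the antisense gene of Hes5, had 1 to 11 counts there. The regional series was counted by strand, so all exon bases of both genes could be used there, and Gm38287 and Gm20421 had 0 to 10 and 0 to 2 counts. For this reason levels are set side by side within a series and not across the 2, and levels of different genes are compared per kilobase of countable exon.

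**Figure D1:**
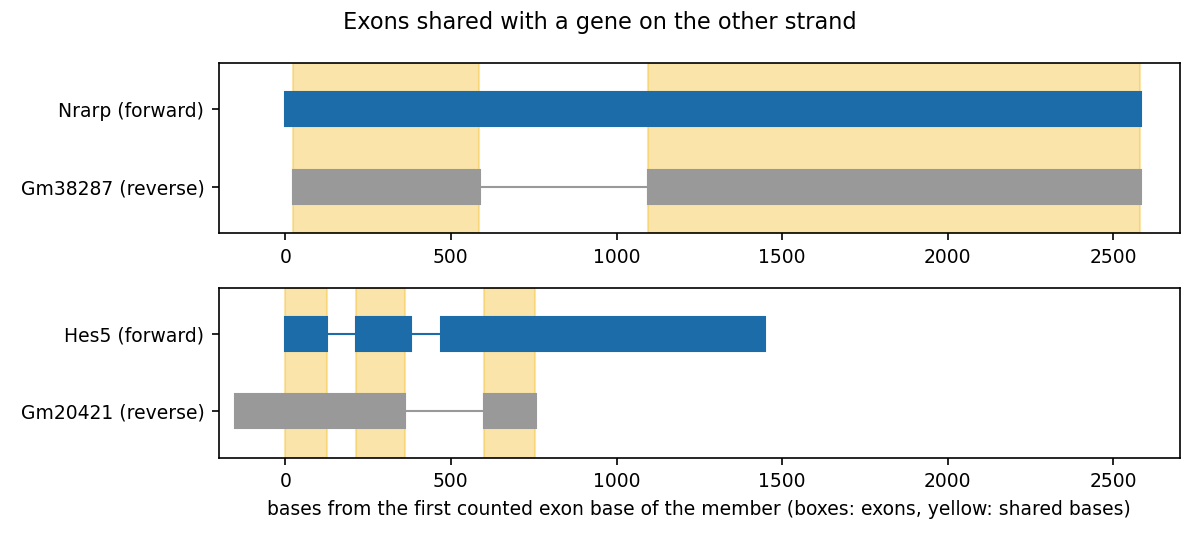
Exons of Nrarp and Hes5 (blue) and of the antisense genes Gm38287 and Gm20421 (grey), plotted as bases from the member's first exon base, with shared bases in yellow. In Nrarp 2051 of 2582 exon bases are shared and in Hes5 433 of 1273.

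The 11 usable libraries of the first series held between 20680902 and 27035395 counts each, and the 10 of the second between 15685784 and 21493255. The endothelial library labelled wild type, batch 2, equalled knockout batch 1 in all 55376 genes and was left out, which leaves wild-type endothelial cells with n = 2. As a check of the labels, Plxnd1 in knockout endothelial libraries had 15.4 to 28.9 CPM (counts scaled to a common library size) against 175 and 213 CPM in the wild type, and in knockout motor neurons 0.646 to 1.79 CPM against 5.14 to 12.1 CPM. The Kdr-Cherry libraries of the knockout series carried many transcripts of other cells. The summed level of 12 fibroblast markers (Col1a1, Foxc1, Pdgfra and others) was 16100 to 18870 CPM there. Erythroid markers summed to 10338 to 23028 CPM, neural progenitor markers to 2988 to 3717 CPM and mural markers to 1222 to 1894 CPM. The sum of 14 endothelial markers (Kdr, Cdh5, Pecam1 and others) was 607 to 1409 CPM, with none at 0. Motor neuron libraries had 20.8 to 52.5 CPM of endothelial markers and 12090 to 16992 CPM of 10 neuronal markers. One library, knockout motor neuron batch 1, held 601 CPM of liver markers against at most 2.16 CPM in the other motor neuron libraries.

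The first comparison asked how the targets are divided between vessels and motor neurons. In wild-type embryos all 6 were higher in endothelial cells than in motor neurons (6 of 6 called higher, where 33.8% of 19266 genes tested were called higher and 31% lower), with log2 fold changes from 0.50 to 5.17. Among the Hey genes, Heyl was at 268 and 190 CPM in endothelial batches 1 and 3 and at 9.71, 3.75 and 5.53 CPM in motor neuron batches 1, 2 and 3. Both endothelial values lay far above all 3 of the motor neurons, and the log2 fold change was 5.17 ± 0.35 (SE, edgeR quasi-likelihood test, adjusted p = 6.6e-07). Hey2 was at 63.0 and 66.4 CPM in endothelial cells and at 8.97, 3.94 and 4.95 CPM in motor neurons, again with no overlap (log2 fold change 3.44 ± 0.27, edgeR adjusted p = 2.1e-06).

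Hey1 was the most evenly shared of the 6. It stood at 24.6 and 30.5 CPM in endothelial cells and at 20.4, 20.8 and 17.2 CPM in motor neurons. The libraries did not overlap, but the log2 fold change was only 0.50 ± 0.13 (edgeR adjusted p = 0.0062). Without endothelial batch 3 it was 0.34 and no longer passed (edgeR adjusted p = 0.086).

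Among the Hes genes, Hes1 was at 115 and 48.4 CPM in endothelial cells against 3.97, 1.87 and 2.10 CPM in motor neurons. The gap between the cell types exceeded the wide gap between the 2 endothelial batches, with a log2 fold change of 4.94 ± 0.55 (edgeR adjusted p = 2.1e-05). It was 4.19 without endothelial batch 1 and 5.43 without batch 3. Hes5 was at 6.19 and 16.7 CPM in endothelial cells and at 4.51, 2.79 and 4.57 CPM in motor neurons, so the lower endothelial library lay just above the motor neurons. Its log2 fold change of 1.53 ± 0.43 (edgeR adjusted p = 0.0093) rested on endothelial batch 3: without that library it was 0.64 (adjusted p = 0.23). The neural progenitor marker Sox2 was at 29.4 CPM in endothelial batch 1 and at 95.6 CPM in batch 3, and its part in the Hes5 difference was not tested. Nrarp, the feedback inhibitor, was at 16.8 and 22.7 CPM in endothelial cells and at 3.65, 2.93 and 4.90 CPM in motor neurons (log2 fold change 2.36 ± 0.31, edgeR adjusted p = 7.0e-05). In bulk RNA, fewer cells of a type and less RNA per cell cannot be told apart.

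**Figure D2:**
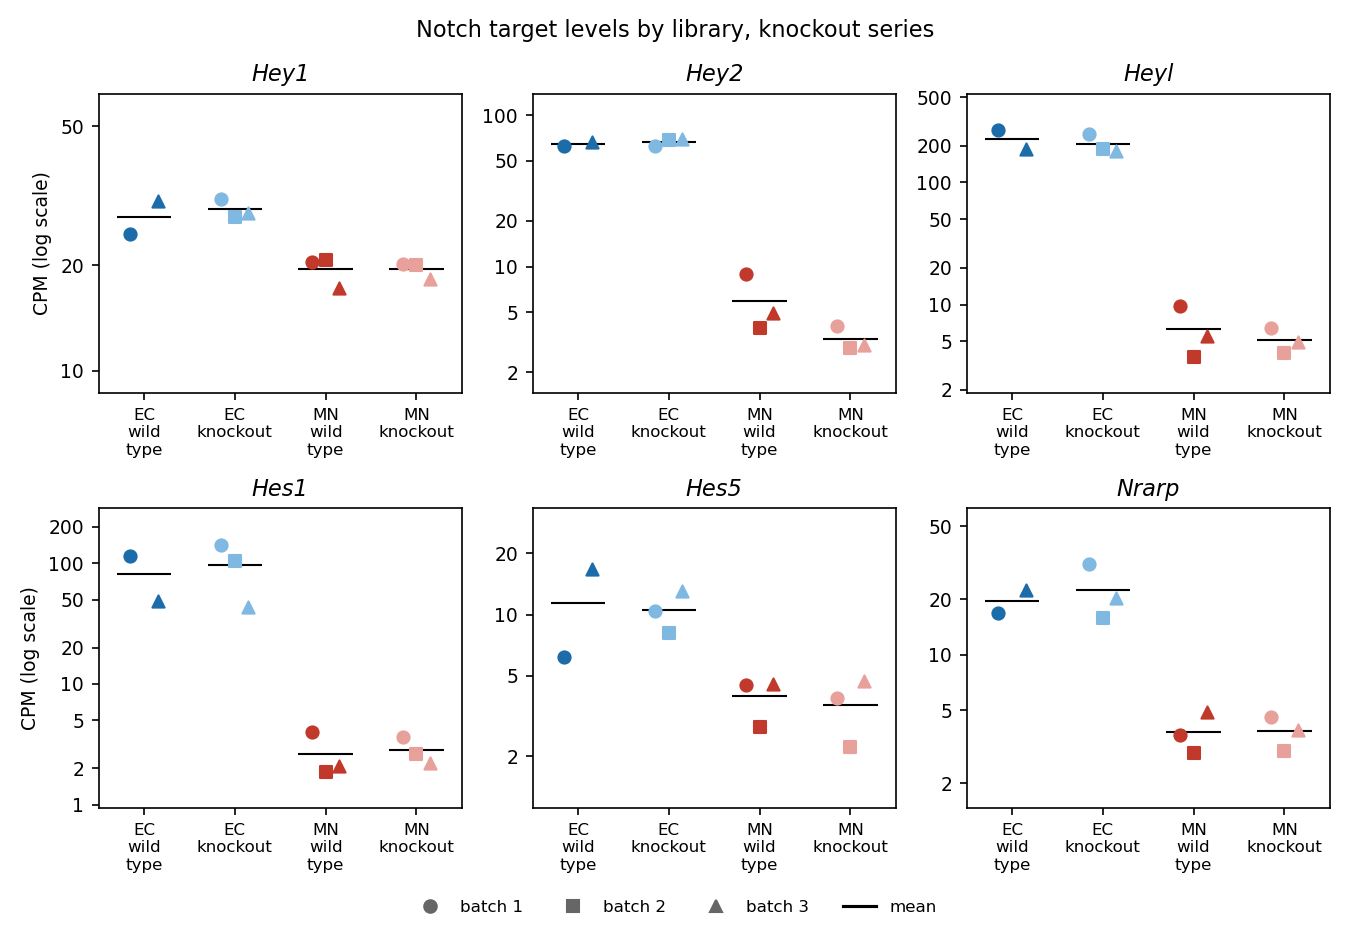
Level of each gene in CPM (log axis) in the 11 libraries of the knockout series, by cell type (EC, endothelial cells; MN, motor neurons) and genotype, with symbols for batches and a line at the group mean. Each gene is higher in every endothelial than in every motor neuron library, and wild-type and knockout points overlap.

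The order of the 4 groups of this series was alike for all 6 genes: both endothelial groups lay above both motor neuron groups with no overlap, and wild type and knockout overlapped within each cell type. Per kilobase, the order of the genes changed with the cell type. For Nrarp and Hes5 a read had to lie wholly in unshared bases. Their levels per kilobase are therefore low estimates in this series, and their places in the order are uncertain. In wild-type endothelial cells Hes1 led at 55.7 ± 32.1 CPM per kb (SD, n = 2), followed by Heyl at 50.4 ± 12.2 and Nrarp at 37.1 ± 7.83, which lay within each other's spread. Hey2 followed at 25.4 ± 0.959, and Hes5 at 13.6 ± 8.83 and Hey1 at 11.4 ± 1.72 came last. In wild-type motor neurons Hey1 led at 8.04 ± 0.807 CPM per kb (SD, n = 3), beside Nrarp at 7.21 ± 1.88, while Heyl at 1.40 ± 0.674 and Hes1 at 1.80 ± 0.786 came last.

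Genes around the pathway were read in the same comparison, in which 33.8% of all genes tested were called higher and 31% lower. Of 11 receptors and ligands, 7 were higher in endothelial cells, 3 were lower and 1 did not pass, with a median log2 fold change of 2.76 against 0.02 over all genes. Those with the smallest p among the higher ones were the ligand Jag1 (log2 fold change 2.96 ± 0.16), the receptors Notch2 (3.26 ± 0.24) and Notch3 (3.56 ± 0.28) and the ligand Dll4 (3.43 ± 0.32). Lower in endothelial cells were Dlk2 (-3.88 ± 0.44), Jag2 (-1.21 ± 0.31) and Dll1 (-1.03 ± 0.40), the last 2 being ligands. Of 31 genes that process, modify or transmit the signal, 12 were higher, 8 lower and 11 did not pass. That division was near the one over all genes, and their median log2 fold change was 0.07. Of 14 genes linked to arteries and Notch, 13 were higher and none lower, led by Igfbp3 (3.34 ± 0.17), Jag1 and Efnb2 (1.49 ± 0.10), and of 7 venous genes 5 were higher and 1 lower. Of 11 proneural and commitment genes, which Hes proteins repress or which drive neuronal fate, 5 were higher, 4 lower and 2 did not pass. Of 7 tested relatives of the Hes and Hey family, 5 were higher and 2 lower, with Id3, an inhibitor of helix-loop-helix factors, at 4.17 ± 0.24 and Hes6, which counters Hes1, at -0.66 ± 0.17. All 14 endothelial markers were higher in endothelial libraries. Markers of mural cells (11 of 11 tested higher), macrophages (7 of 7), erythroid cells (8 of 8), fibroblasts (11 of 12) and neural progenitors (9 of 12) also moved with the members. The part of these cells in the results was not tested.

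The second comparison asked how vessels inside the cord differ from those of the meninges. Hey1, Heyl, Hes5 and Nrarp were higher in spinal endothelial libraries, by 2.18 to 27.2-fold, and their 5 spinal and 5 meningeal libraries did not overlap, whereas Hey2 and Hes1 did not pass the test and their libraries overlapped. Thus 4 of 6 were called higher and none lower (unblocked edgeR test at an adjusted p of 0.05), where 24.8% of 16213 genes were called higher and 23% lower.

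Hey1 was at 89.8, 84.5, 70.4, 80.4 and 80.2 CPM in spinal batches 1 to 5 and at 10.7, 7.52, 12.1, 10.9 and 8.70 CPM in meningeal ones. Spinal values lay close together and all stood far above the meningeal ones. The log2 fold change was 3.02 ± 0.14 (SE, n = 5 against 5, edgeR adjusted p = 6.4e-08), an 8.09-fold difference that ranked place 4 of 16213 genes by p. Hey2, with which Hey1 is usually paired in arteries, was at 55.9, 99.9, 46.9, 42.3 and 45.9 CPM in spinal and 47.3, 48.1, 45.1, 43.0 and 51.1 CPM in meningeal libraries. Apart from spinal batch 2 the Hey2 values of both regions were intermingled, and the log2 fold change of 0.31 ± 0.21 did not pass (edgeR adjusted p = 0.24, 95% interval -0.14 to 0.76). Without spinal batch 2 it was 0.02.

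Heyl was at 469, 767, 337, 483 and 463 CPM in spinal and at 219, 214, 226, 256 and 240 CPM in meningeal libraries. The lowest spinal library still lay above the highest meningeal one, and the log2 fold change was 1.12 ± 0.18 (edgeR adjusted p = 2.8e-04). Spinal batch 2, highest in Heyl and Hey2, also had the highest summed level of 12 mural markers, 9343 CPM against 3754 to 5031 CPM in the other spinal and 1449 to 1937 CPM in the meningeal libraries, with Rgs5 at 3378 CPM.

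Hes5 showed the widest difference of the 6. It stood at 49.2, 23.0, 50.8, 34.8 and 29.2 CPM in spinal libraries and at 1.34, 0.836, 2.45, 0.993 and 1.23 CPM in meningeal ones, the latter resting on 13 to 42 counts each. The groups were far apart, with a log2 fold change of 4.77 ± 0.32 (edgeR adjusted p = 3.1e-07). Hes1 stood at 63.1, 94.5, 47.2, 59.8 and 57.5 CPM in spinal and at 79.3, 39.7, 35.7, 69.8 and 75.1 CPM in meningeal libraries. Its meningeal batches 2 and 3 were low and the other 3 were above most spinal values, so the groups overlapped and the log2 fold change was 0.10 ± 0.24 (edgeR adjusted p = 0.76, 95% interval -0.43 to 0.64). Within batches the spinal minus meningeal difference of Hes1 on the log2 scale was -0.33, 1.25, 0.41, -0.22 and -0.39 in batches 1 to 5, and its sign turned in the whole comparison when spinal batch 2 (-0.08) or meningeal batch 2 or 3 (-0.06 each) was left out. Nrarp was at 227, 306, 212, 247 and 232 CPM in spinal and at 58.2, 29.1, 42.5, 62.6 and 54.4 CPM in meningeal libraries. Those groups were well apart (log2 fold change 2.31 ± 0.19, edgeR adjusted p = 1.4e-06), and the within-batch differences were 1.96 to 3.39.

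**Figure D3:**
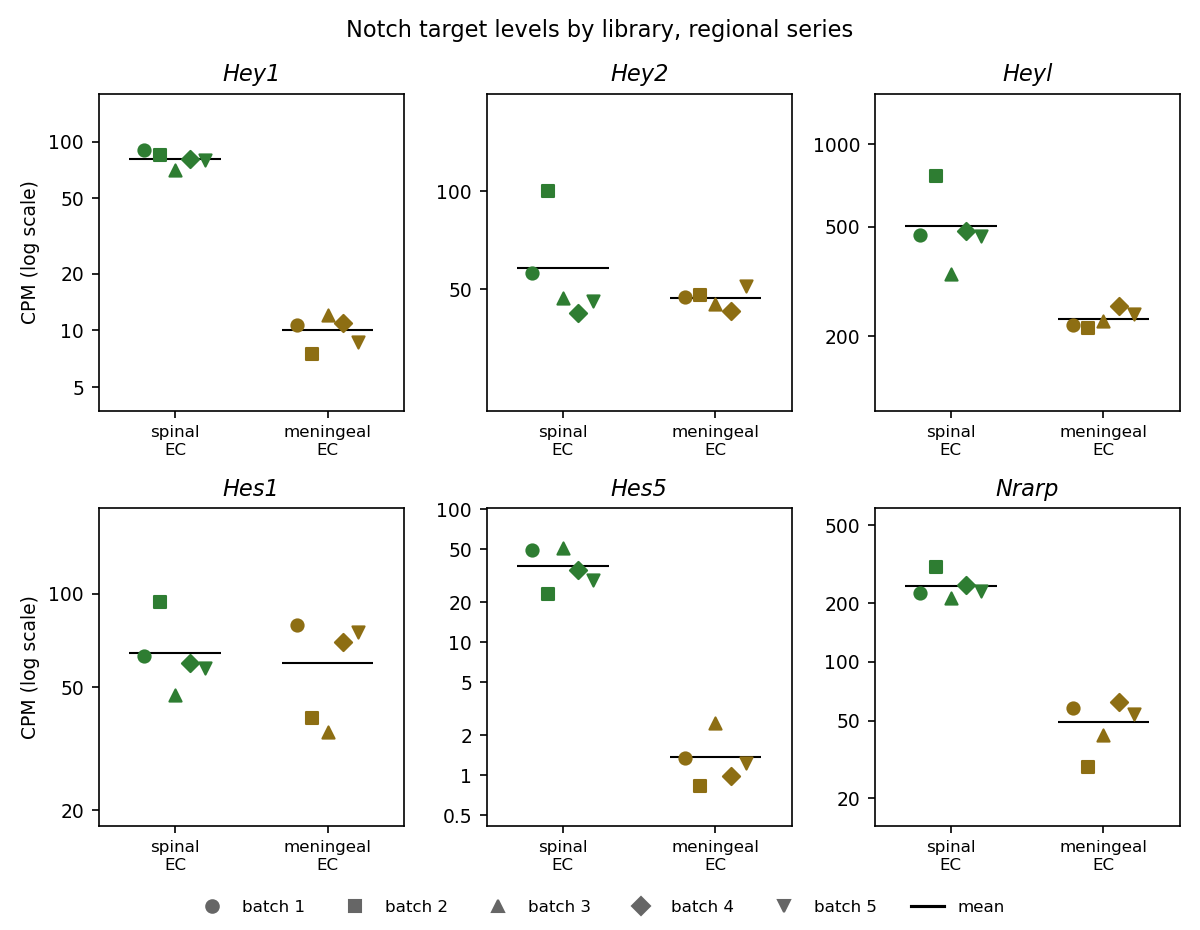
Level of each gene in CPM (log axis) in 5 spinal and 5 meningeal endothelial libraries of the regional series, with symbols for batches and a line at the group mean. Hey1, Heyl, Hes5 and Nrarp are separated between the regions, and Hey2 and Hes1 overlap.

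Per kilobase, Heyl led in spinal libraries at 111 ± 35.0 CPM per kb (SD, n = 5), with Nrarp within its spread at 94.7 ± 14.1. Hes1 at 43.9 ± 12.1, Hey1 at 33.4 ± 2.93, Hes5 at 29.4 ± 9.62 and Hey2 at 22.8 ± 9.36 followed, and among these 4 neighbours in the order lay within each other's spread. In meningeal libraries Heyl at 50.9 ± 3.79 and Hes1 at 40.8 ± 14.0 led, Nrarp at 19.1 ± 5.26 and Hey2 at 18.4 ± 1.20 lay within each other's spread, and Hey1 at 4.12 ± 0.761 and Hes5 at 1.08 ± 0.501 lay at the bottom.

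The part of the cord that was dissected did not change the calls of the 4 genes. With ventral batches 1 to 3 alone the log2 fold changes of Hey1, Heyl, Hes5 and Nrarp were 2.98, 1.22, 4.69 and 2.48, and with whole-cord batches 4 and 5 alone 3.01, 0.91, 4.83 and 2.02, all passing edgeR's test. Calls were common in these fits: 7107 genes were called with the ventral and 8793 with the whole-cord batches, against 7755 with all batches. In the 2 whole-cord batches Hes1 was lower in spinal libraries (-0.32 ± 0.08, edgeR adjusted p = 0.0059), while in the ventral batches it was 0.36 ± 0.34 (edgeR adjusted p = 0.42). The test of the difference between the batch sets passed for none of the 6 in edgeR (0.547% of 17901 genes were called), and at an unadjusted p of 0.05 it also passed for none. For Hes1 the difference of the log2 fold changes was 0.73 ± 0.48 (edgeR adjusted p = 0.43), and it was called only when no filter on low counts was used (0.76, adjusted p = 0.022). Batch numbers and cord part cannot be told apart here.

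Markers of the cells that could accompany the sorted ones differed between the regions as well, where 24.8% of all genes were called higher and 23% lower. Endothelial markers were higher in spinal libraries for 11 of 14 genes and lower for none, with summed levels of 2105 to 4691 CPM against 1064 to 2194 CPM, and mural markers were higher for 8 of 12 and lower for 3. Of 12 progenitor markers 9 were higher, none lower and 3 did not pass, and with the batches as a block 1 was lower. Summed, these 12 were at 2840.5 to 3907.5 CPM in spinal and 2365.7 to 2707.9 CPM in meningeal libraries. Among them Sox2 was at 57.9 to 157 CPM in spinal and 2.64 to 4.77 CPM in meningeal libraries. Pax6 was at 19.8 to 65.1 CPM against 0 to 0.818 CPM. All 10 neuron markers were higher in spinal libraries, at a summed 1230 to 2793 CPM against 230 to 628 CPM, and 5 of 8 motor neuron markers were higher and none lower. All 12 fibroblast markers were lower in spinal libraries, at a summed 1629 to 2926 CPM against 15997 to 22409 CPM. Of 7 macrophage markers 3 were higher and none lower. None of 8 erythroid markers passed, at a summed 4404.5 to 46020 CPM in spinal and 7155 to 53703 CPM in meningeal libraries.

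Set against such markers of the same library, the 4 genes took different courses. These ratios were chosen after the levels had been seen and carry no test. Per 1000 CPM of summed endothelial markers, Hey1 was at 17.1 to 33.5 CPM in spinal and 4.98 to 10.1 CPM in meningeal libraries, with no overlap. Per 1000 CPM of mural markers Hey1 likewise stayed apart, at 9.04 to 18.8 CPM against 4.83 to 8.35 CPM. Nrarp per endothelial marker overlapped between the regions, at 51.8 to 101 CPM against 26.8 to 54.7 CPM, with the median higher in spinal libraries (55.5 against 31.5 CPM). Heyl per 1000 CPM of mural markers turned round: it was at 82.1 to 101 CPM in spinal and at 128 to 156 CPM in meningeal libraries. Hes5 per CPM of Sox2 overlapped between the regions, at 0.324 to 0.602 against 0.259 to 0.538, although per endothelial marker it stayed apart, at 6.50 to 24.1 CPM against 0.452 to 1.82 CPM. Sox2 was picked from the 12 progenitor markers, and no ratio to their sum was taken. That sum differed far less than Hes5, at 2840.5 to 3907.5 CPM in spinal and 2365.7 to 2707.9 CPM in meningeal libraries. The part of progenitors in the Hes5 difference was not tested.

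**Figure D4:**
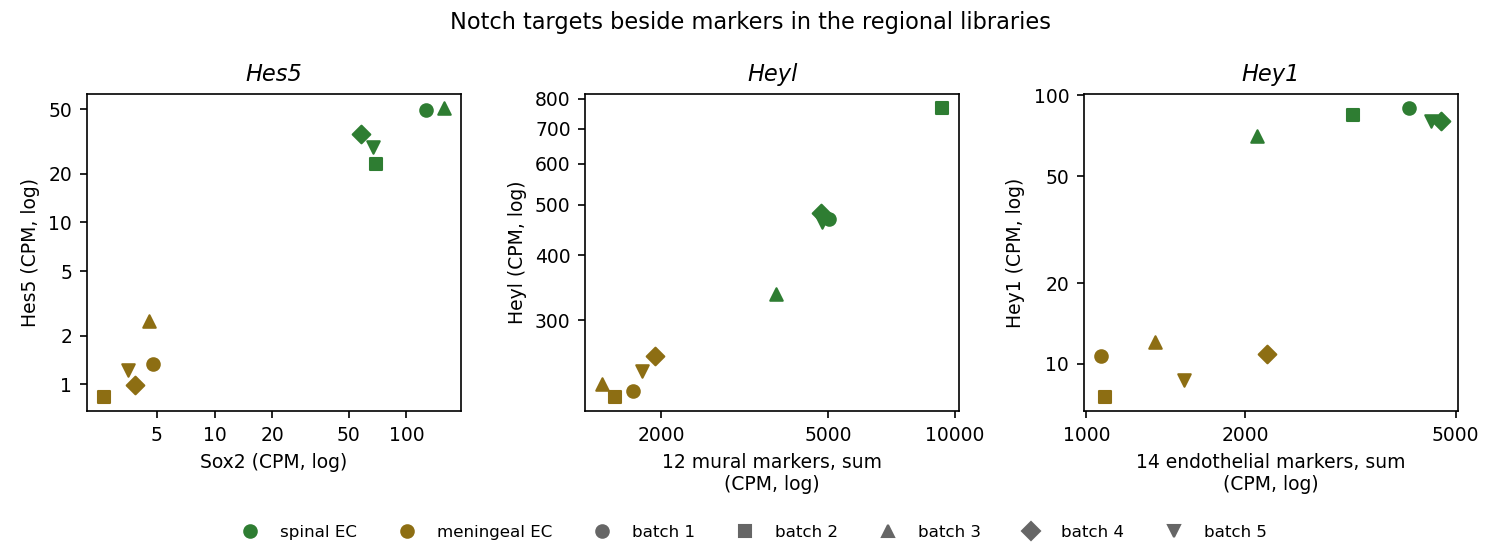
Hes5 against Sox2, Heyl against the sum of 12 mural markers and Hey1 against the sum of 14 endothelial markers (all in CPM, log axes) in the 10 regional libraries, coloured by region with symbols for batches. Spinal libraries lie higher on both axes for Hes5 and Heyl. The ratio of Hes5 to Sox2, picked from the 12 progenitor markers, overlaps between the regions, and that of Heyl to mural markers does not. Hey1 is at 70.4 CPM in the spinal library with 2105 CPM of endothelial markers. It is at 10.9 CPM in the meningeal one with 2194 CPM.

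Most receptors and ligands upstream of the targets were higher in the cord as well. Of 11 receptors and ligands, 10 were higher in spinal libraries and 1 was lower, with a median log2 fold change of 1.78 against 0.01 over all genes. The ligands Dll1 (3.93 ± 0.29) and Dll3 (3.48 ± 0.31), known from neural progenitors and early neurons, had the smallest p. The receptors Notch4 (2.74 ± 0.25) and Notch1 (1.47 ± 0.15) followed. Notch2 was the lower one (-1.49 ± 0.21). With the batches as a block 9 of the 11 were higher. Of 31 genes that process or transmit the signal 12 were higher, 4 lower and 15 did not pass, where 24.8% of all genes were called higher and 23% lower. Dtx4, Lfng, Maml3 and Adam10 led the higher ones (log2 fold changes 1.76 ± 0.14, 1.59 ± 0.21, 0.80 ± 0.11 and 0.67 ± 0.11), and RBPJ's own gene Rbpj was slightly lower (-0.27 ± 0.09).

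Genes linked to Notch in arteries split, beside the same 24.8% higher and 23% lower over all genes. Of 14, 8 were higher in spinal libraries, led by the chemokine receptor Cxcr4 (3.83 ± 0.18), the netrin receptor Unc5b (2.56 ± 0.20) and the connexin Gja4 (2.26 ± 0.22), while Igfbp3 (-1.63 ± 0.14), Efnb2 (-0.81 ± 0.12), Gja5 (-1.82 ± 0.29) and Bmx (-2.17 ± 0.39) were lower and 2 did not pass. Of 7 venous genes 2 were higher and 2 lower. Of 10 tested proneural and commitment genes 6 were higher, among them Olig2 (8.23 ± 0.72), Neurog3 (6.81 ± 0.62) and Neurog2 (5.29 ± 0.49), and Cdkn1c, a cell cycle inhibitor, was lower (-1.30 ± 0.11). Of 6 tested Hes and Hey relatives 4 were higher, led by Bhlhe40 (2.73 ± 0.17), and Id3 was lower (-0.48 ± 0.14).

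The genes whose log2 levels ran most closely with each member over the 10 regional libraries differed from member to member. These are descriptions over libraries that share 2 regions and 5 batches. Among 12104 genes Hey1 ran with Cxcr4 (Pearson r = 0.995), Cabp1 and Plekhh1, Heyl with Spry4 (0.997), Ptk2 and Gper1, and Nrarp with Tmem50b (0.996), Igfbp7 and Mcam. Hes5 ran with Kcnc1 (0.998), Phyhipl and Adgrg1, Hey2 with Nol10 (0.977), Alpk1 and Zfp438, and Hes1 with Gadd45b (0.954), Mfsd14a and Fam3c. Among the members themselves, Hey1 and Hes5 were at r = 0.983 and Hey1 and Nrarp at 0.977, whereas Hes1 reached 0.07 to 0.54 with the other 5. Over the 11 libraries of the knockout series, where cell type sets most of the spread, Hes5 ran most closely with Sox2 (0.981), Fgfbp3 and Hopx among 12315 genes, and Heyl with Ccdc102a (0.999), Tns2 and Spc24. There Hey2 ran with Acss3 (0.996), Postn and Sphk1, Hey1 with Tmem170 (0.970), Rhbdf2 and Egln3, Hes1 with Pttg1 (0.996), Eaf1 and Kifc1, and Nrarp with Fam102a (0.996), Tcf3 and Mocs1.

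The third comparison asked whether the targets change without Plxnd1 in endothelial cells. None of the 6 passed in edgeR or DESeq2, and without the batch as a block none had an unadjusted p under 0.05 in edgeR. edgeR called 0% of 18209 genes (431 at an unadjusted p under 0.05, and 34 by DESeq2), so the count says little about the members. Hey2 was the steadiest: knockout libraries held 62.4, 68.3 and 69.6 CPM beside wild-type values of 63.0 and 66.4 CPM, a log2 fold change of 0.05 ± 0.10 (95% interval -0.18 to 0.28). Hey1 was at 31.1, 27.6 and 28.2 CPM in the knockout, around its wild-type values (0.08 ± 0.14, interval -0.27 to 0.42). Heyl was at 249, 187 and 181 CPM in the knockout, again around wild type (-0.15 ± 0.20, interval -0.63 to 0.32).

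Hes1 followed the batch more than the genotype. Batch 1 had 115 CPM without and 142 CPM with the knockout, batch 3 had 48.4 and 43.6 CPM, and knockout batch 2 had 104 CPM, so its interval was wide (0.24 ± 0.54, -1.05 to 1.53). Hes5 was at 10.4, 8.10 and 13.1 CPM in the knockout, between its 2 wild-type values (-0.12 ± 0.42, interval -1.13 to 0.89). Nrarp was at 31.3, 15.9 and 20.4 CPM in the knockout (0.20 ± 0.30, interval -0.52 to 0.92). Its knockout minus wild-type difference was 0.90 in batch 1 and -0.15 in batch 3, so the 2 pairs ran opposite ways, and those of Hey1 (0.33 and -0.11), Hes1 (0.30 and -0.15) and Hes5 (0.74 and -0.35) did so too. With batches as a block, which called 180 genes (0.989%), none of the 6 passed either, and Nrarp had the smallest p (0.38 ± 0.17, 95% interval 0.03 to 0.73, unadjusted p = 0.035, edgeR adjusted p = 0.51). That fit of 5 libraries leaves 1 residual degree of freedom.

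In motor neurons none of the 6 passed in edgeR or DESeq2, where edgeR called 2 of 16695 genes, or 0.012% (190 at an unadjusted p under 0.05, and 4 by DESeq2). Hey2 stood at 4.03, 2.91 and 3.01 CPM in knockout batches 1 to 3, against 8.97, 3.94 and 4.95 CPM in the wild-type ones. It was lower in the knockout in 3 of 3 batches, by -1.14, -0.43 and -0.70 on the log2 scale, although knockout batch 1 overlapped wild-type batch 2. The log2 fold change was -0.85 ± 0.32 (95% interval -1.60 to -0.10, unadjusted p = 0.031, edgeR adjusted p = 1.0), and with batches as a block, where 0.0359% of genes were called, -0.79 ± 0.19 (edgeR adjusted p = 0.36). It thus failed the correction in both fits. Without knockout batch 1, the library with liver transcripts, it was -1.01, and without wild-type batch 1, the highest in Hey2, -0.43. The level was low, and the endothelial libraries, which held more Hey2, also carried transcripts of other cells. Endothelial markers summed to 27.7 to 43.7 CPM in wild-type and 20.8 to 52.5 CPM in knockout motor neurons. Fibroblast markers summed to 845 to 983 CPM and 758 to 947 CPM there, and mural markers to 23.9 to 39.9 CPM and 22.5 to 42.5 CPM. The part of such cells in the Hey2 values was not tested.

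The other 5 stayed nearer to wild type in motor neurons. Knockout libraries held 20.2, 20.0 and 18.2 CPM of Hey1, the highest of them, beside 20.4, 20.8 and 17.2 CPM in wild-type ones (0.00 ± 0.11, interval -0.26 to 0.26). The remaining log2 fold changes were -0.31 ± 0.35 for Heyl, 0.09 ± 0.34 for Hes1, -0.14 ± 0.32 for Hes5 and 0.00 ± 0.26 for Nrarp, with overlapping libraries in each. The difference between the endothelial and the motor neuron effect passed for none of the 6 (edgeR called 0% of 19266 genes, 352 at an unadjusted p under 0.05, and DESeq2 1), and was 0.90 ± 0.37 for Hey2 (unadjusted p = 0.036, edgeR adjusted p = 1.0). Among the pathway and related lists no gene passed in either knockout comparison without the block. With batches as a block, where 0.989% of 18209 genes were called, Notch3 (0.54 ± 0.09), Notch1 (0.39 ± 0.09), Olig2 (0.94 ± 0.19) and the venous gene Vwf (0.86 ± 0.13) were higher and Aplnr (-0.67 ± 0.11) lower in knockout endothelial cells. Notch3 is also a mural marker and Olig2 a progenitor marker. They were the only ones called in those lists (1 of 11 tested and 1 of 12). Of 7 tested cartilage markers 5 were higher. Of 14 endothelial markers 2 were lower and 12 did not pass. In the same fit, with its 1 residual degree of freedom, 2 of 8 erythroid markers were lower and 1 of 7 Schwann cell and neural crest markers was higher. The part of those cells in these differences was not tested. These comparisons use the same wild-type libraries as the one between cell types.

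**Figure D5:**
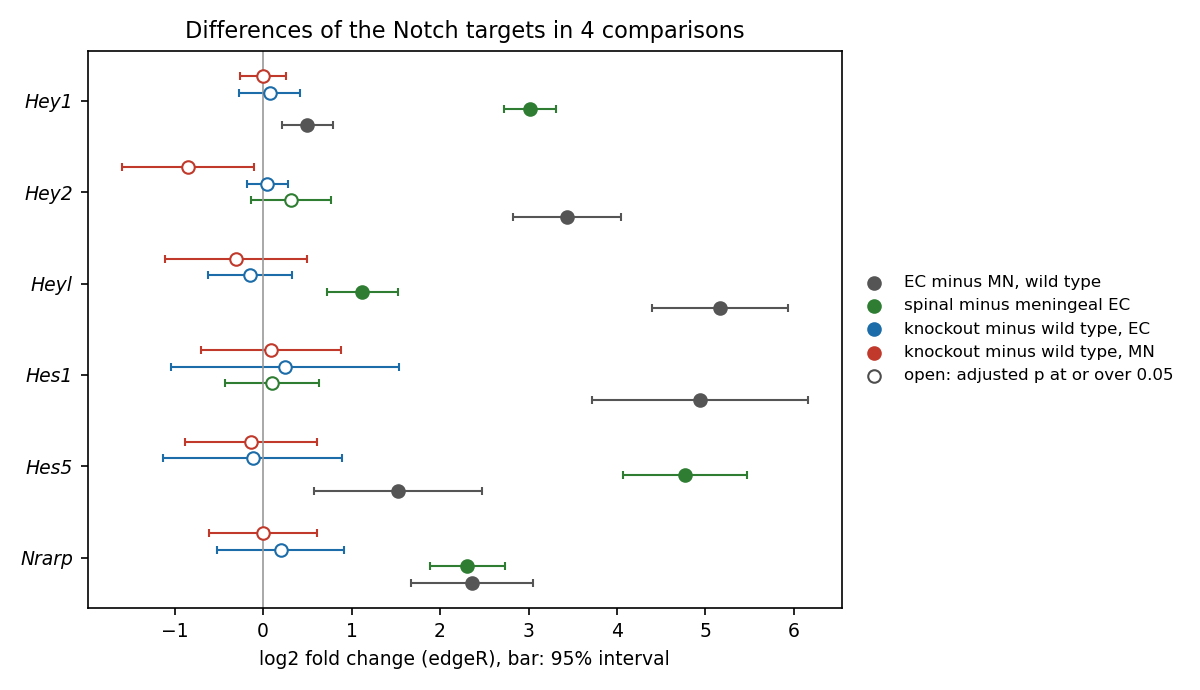
Log2 fold changes of the 6 genes in 4 comparisons, with 95% intervals from edgeR as bars and filled points where the adjusted p is under 0.05. All 6 points of the endothelial against motor neuron comparison and 4 of the spinal against meningeal comparison are filled, and none of the knockout comparisons.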

How the data were processed

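RNA counts of 6 Notch target genes were analysed in sorted endothelial cells and motor neurons. The deposited values are raw counts per gene; per the file headers the authors made them with featureCounts 1.6.4 on a GENCODE M22 basic annotation, without strand and as single reads in the knockout series, and by strand and as read pairs in the regional series. Per the submitters' processing notes, Trimmomatic 0.39, STAR 2.5.3a and the build GRCm38 (mm10) were used. Of 22 libraries 21 were used, since one file repeated another. From the counts, levels were computed as CPM, counts over the TMM-scaled library size. Comparisons used the edgeR 4.0.16 quasi-likelihood test over all genes in R 4.3.3, with filterByExpr at a minimum count of 10 and Benjamini-Hochberg adjustment at 0.05. Knockouts were tested within a cell type, cell types and the interaction in 1 fit of 11 libraries, and regions 5 against 5. Alternatives were DESeq2 1.42.0, relative log expression scaling, no filter, a term for the batch (replicate block), and fits without 1 library at a time. Log2 levels for likeness used a prior count of 2, among genes with a mean of at least 5 CPM.

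The labels give batch numbers, which pair libraries. As a check, deviations from the group means were correlated between libraries. Same-numbered libraries gave r = 0.468 and 0.397 in endothelial and 0.271, 0.318 and 0.279 in motor neuron pairs. Regional pairs gave -0.273, -0.032, 0.303, 0.169 and 0.038. Libraries of unlike number reached at most 0.13 in endothelial, -0.0424 in motor neuron and 0.331 in regional pairs. These values therefore do not bear out the pairing of the regional libraries. With only 2 wild-type endothelial libraries, the deviations of each mirror those of the other, so the endothelial values are a weak check. The members, the 6 pathway lists and the 11 marker lists were chosen with earlier results of these data known. The text names the members, up to 4 genes of a pathway list with the smallest p in each direction, the first 3 genes of a marker list, the 3 genes most alike to each member, genes overlapping a member, and Plxnd1. Lists in which nothing passed are given by count. One gene of the proneural list is not reported here and was left out of its counts. The fits without the block were tested on simulated counts. Sequences are RefSeq promoters, with an entry for 3 of the 6 members. Intervals cover the spread between libraries only.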

Additional observations from a re-analysis of the deposited data

Results flagged for a closer look

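Hey2 in the spinal endothelial library of batch 2 was at 99.9 CPM, far from the 42.3 to 55.9 CPM of the other 4 spinal libraries. Its gap to the nearest library was 0.764 of the range of the group, above Dixon's critical value of 0.71 for 5 samples. Of 12 such sets of 5 libraries (6 genes in 2 regions) this was the only one past that value, and chance flags about 1 in 20. The same library had the highest Heyl (767 CPM), Hes1 (94.5 CPM) and Nrarp (306 CPM), the lowest Hes5 of the spinal libraries (23.0 CPM), and the highest summed mural markers (9343 CPM). Their part in the Hey2 value was not tested.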

How the results depend on the processing

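Between spinal and meningeal libraries, the calls of Hey1, Heyl, Hes5 and Nrarp held with each other scaling, tool, filter and batch set, with the batch as a replicate block, and without each library in turn. The block changed no call of the 6 genes in any comparison. It moved the number of genes called from 0 to 180 in the endothelial knockout, from 2 to 6 in the motor neuron knockout and from 98 to 4 for ventral against whole cord. DESeq2 called 34, 4 and 1321 genes there and 1 in the interaction, fits with no filter called 2, 4 and 1780 (with 1 of the 6 members, Hes1), relative log expression scaling called 305 for the cord part, and a single fit of all knockout-series libraries called 1 gene in each knockout. Leaving out single libraries gave 0 to 1 genes in each knockout and in the interaction, and 0 to 1190 for the cord part (1190 without spinal batch 2, 582 without meningeal batch 1).

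Signs that turned belonged to differences that had not passed a test, except for Heyl relative to markers, and the cause was not tested. The block gave Hes5 0.17 in the endothelial knockout and Hey1 0.0029 and Nrarp 0.0071 in the motor neuron knockout. With no filter the latter 2 were 0.00068 and 0.00095, and Hey1 was 0.00074 in the fit of all libraries. In the whole-cord batches alone Hey2 was -0.10 and Hes1 -0.32. Relative to summed endothelial markers, a scaling added after the values were seen, the spinal minus meningeal log2 difference was -1.12 for Hey2, -0.28 for Heyl and -1.21 for Hes1, and relative to mural markers -1.41, -0.57 and -1.51.

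Without each library in turn, the endothelial knockout gave ranges of -0.059 to 0.24 for Hey1, -0.38 to 0.13 for Heyl, -0.25 to 1.02 for Hes1, -0.65 to 0.76 for Hes5 and -0.11 to 0.43 for Nrarp. The motor neuron knockout gave -0.082 to 0.050 for Hey1, -0.57 to 0.14 for Heyl, -0.13 to 0.50 for Hes1, -0.38 to 0.11 for Hes5 and -0.16 to 0.22 for Nrarp, and Hey2 stayed below 0 (-1.07 to -0.43). Hes1 between the regions ranged from -0.081 to 0.19. The endothelial knockout rests on 2 wild-type libraries, and depth limits Hes5 in meningeal libraries, at 13 to 42 counts.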
